A study of Danio rerio with 30 samples.

Results

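The genes that license and copy DNA were followed in regenerating adult zebrafish retina, over 46 symbols chosen by name and sorted by the job their proteins do at an origin or a fork. The symbols match 48 of the 32520 Ensembl genes counted, since MCM6 and RRM2 each belong to 2 genes, which are given here with their IDs. They comprise 7 helicase genes, 6 genes of the origin recognition complex, 3 for loading factors, 6 for helicase activation, 8 for polymerases, 7 for the clamp and its loaders, 3 for replication protein A (RPA), 2 for flap and nick processing, 4 for nucleotide supply and 2 for a histone chaperone.

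Before S phase, the origin recognition complex with CDC6 and CDT1 loads the MCM hexamer onto DNA, a step called licensing, and geminin then blocks CDT1 so that no origin is licensed again. CDC45 and the GINS complex turn the loaded hexamer into a working helicase, and polymerases, a sliding clamp and a single-strand binding protein follow it along the fork. In the fish retina, Müller glia re-enter the cell cycle after injury and give rise to progenitors, and microglia, which depend on the CSF1 receptor, gather at the wound.

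Polyadenylated RNA from retinas of adult fish was sequenced in 30 libraries, in 10 groups of 3, the injured ones taken 2 days after injury. In the needle poke experiment (batch RS14) all fish were wild type: 1 group was uninjured and untreated, and 3 groups were poked and kept in water with DMSO, with PLX3397 (pexidartinib, a CSF1 receptor inhibitor) or with ZVAD-fmk (a caspase inhibitor). The uninjured fish had no DMSO, so injury and DMSO cannot be told apart. In the NMDA experiment (batch RS19) wild-type fish, csf1ra mutants and csf1rb mutants were left uninjured or had NMDA, which overexcites neurons, injected into the eye. Drug doses, mutant alleles and ages are not given in the sources used here. Wild type does not mean free of transgenes here. No library of batch RS14 had fewer than 17542 counts of egfp, a transgene, and none of batch RS19 fewer than 6121. Which transgenic line these counts come from was not tested. The titles carry the letters MG, but the extraction notes describe whole retinas, and values are read here as whole retina. The marker lists of rods, bipolar cells and amacrine cells had counts in every library. The rod marker rho was at 0 in at least 1 library. The presence of such counts alone cannot tell whole retina from samples enriched for Müller glia, and which of these was sequenced was not tested. Sums of the rod and Müller glia lists are given below. If the samples were enriched, changes given here for retina are those of the enriched cells.

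Total counts were 38933511 to 92198888 per library after needle poke and 22849708 to 41622168 in the NMDA experiment. Nothing in the labels ties each library to its own fish, and the p-values therefore describe spread between libraries, which may be technical. In bulk tissue, fewer cells of a type and less RNA per cell cannot be told apart. An earlier account of these data set 4 needle poke libraries apart (DMSO replicate 3, PLX3397 replicate 2, ZVAD-fmk replicate 1 and uninjured replicate 2). For the replication genes, DMSO replicate 3 was the highest of its group in 41 of 47 genes counted in all 3 libraries, PLX3397 replicate 2 in 46 of 48 and ZVAD-fmk replicate 1 in 32 of 47. The numbers of genes called against DMSO and between the drugs are given with and without all 4. Most drug changes of single genes are given with all libraries only. Levels are counts scaled to library size (CPM), which compare libraries but not genes of different length, and libraries are listed in order of replicate number. Differences are log2 fold changes ± SE, with adjusted p from edgeR's quasi-likelihood test over all genes tested, called at an adjusted p under 0.05.

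After needle poke, nearly the whole replication machinery was higher. The 48 genes together reached 2994, 2949.8 and 3721 CPM in the DMSO libraries, against 326, 360.3 and 335 CPM in the uninjured ones. Of the 48, 47 were called higher and none lower, while 18.2% of the 21334 genes tested were called higher and 13.4% lower. The 47 were also the genes with every DMSO library above every uninjured one, a pattern held by 22.3% of all genes tested. The median change was 3.42, against -0.026 over all genes tested.

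By role, the median rises were 5.61 for the helicase, 5.53 for the histone chaperone, 5.52 for helicase activation and 4.82 for nucleotide supply. They were 3.23 for RPA, 3.10 for polymerases, 3.05 for loading factors, 2.80 for origin recognition, 2.44 for flap and nick processing and 2.03 for the clamp and its loaders. These role differences were not tested. The smallest called rises belonged to rfc1, rfc5 and rpa1 and the largest to mcm10, chaf1b, tyms and cdc45.

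**Figure D1:**
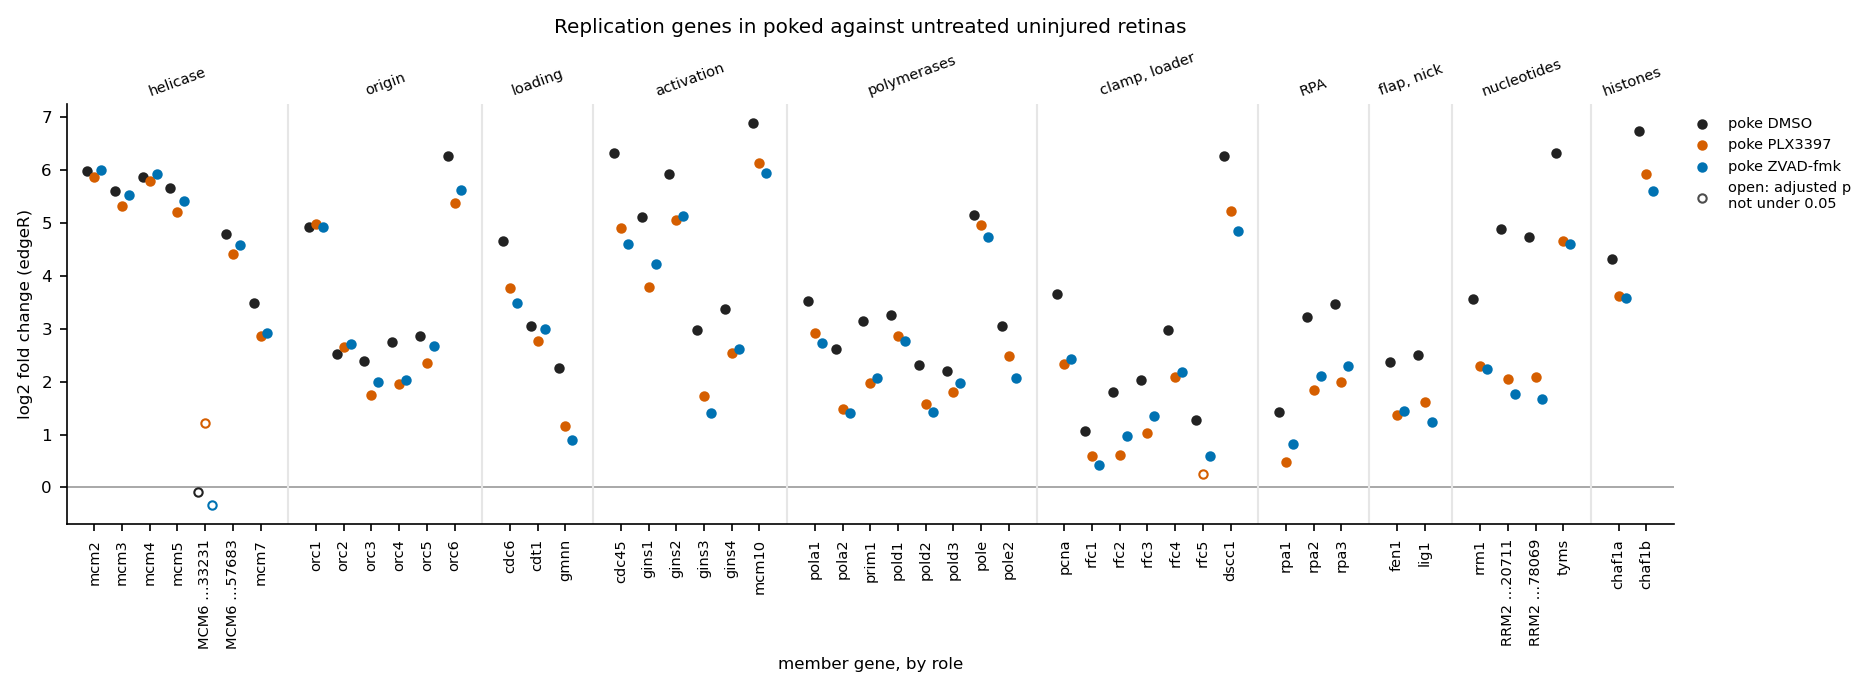
Change of each replication gene against uninjured retina after needle poke with DMSO, PLX3397 or ZVAD-fmk, as log2 fold change (vertical axis), with genes grouped by role along the horizontal axis. Filled points were called at an adjusted p under 0.05 and open points were not. The DMSO points reach 6.89 for mcm10 and lie above 0 for all genes except MCM6 ENSDARG00000033231.

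Both drugs left the retina with less replication RNA than DMSO. The 48 genes summed to 1349.9, 2306 and 1591 CPM with PLX3397 and 1899, 1788 and 1749 CPM with ZVAD-fmk. With PLX3397, 34 of 48 genes were called lower and none higher than with DMSO, against 17.7% of all genes called lower and 16.5% called higher. With ZVAD-fmk, 31 were lower and none higher, against 8.96% and 9.7% of all genes. The median changes were -0.85 and -0.79. Every drug library lay below every DMSO library for 35 genes with PLX3397 and 40 with ZVAD-fmk, a pattern held by 23.8% and 21.7% of all genes tested.

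Both comparisons share the DMSO libraries, so their values stand side by side only. The call lower was made with both drugs for 30 genes. The share of all genes called lower with both drugs was not computed, so this count stands without it. Lower calls were made for gins1, mcm7, orc3 and pold3 with PLX3397 alone and for pole2 with ZVAD-fmk alone. This does not show that the drugs differ at these genes. The 13 genes called with neither were mcm2, mcm3, mcm4, mcm5, both MCM6 genes, mcm10, cdt1, orc1, orc2, orc5, pold1 and pole. Leaving out 1 library at a time gave 24 to 39 genes lower with PLX3397 and 20 to 29 with ZVAD-fmk. Leaving out all 4 libraries that stand apart gave 42 and 35. The shares of all genes called lower in fits without libraries were not computed, so these counts stand without them.

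**Figure D2:**
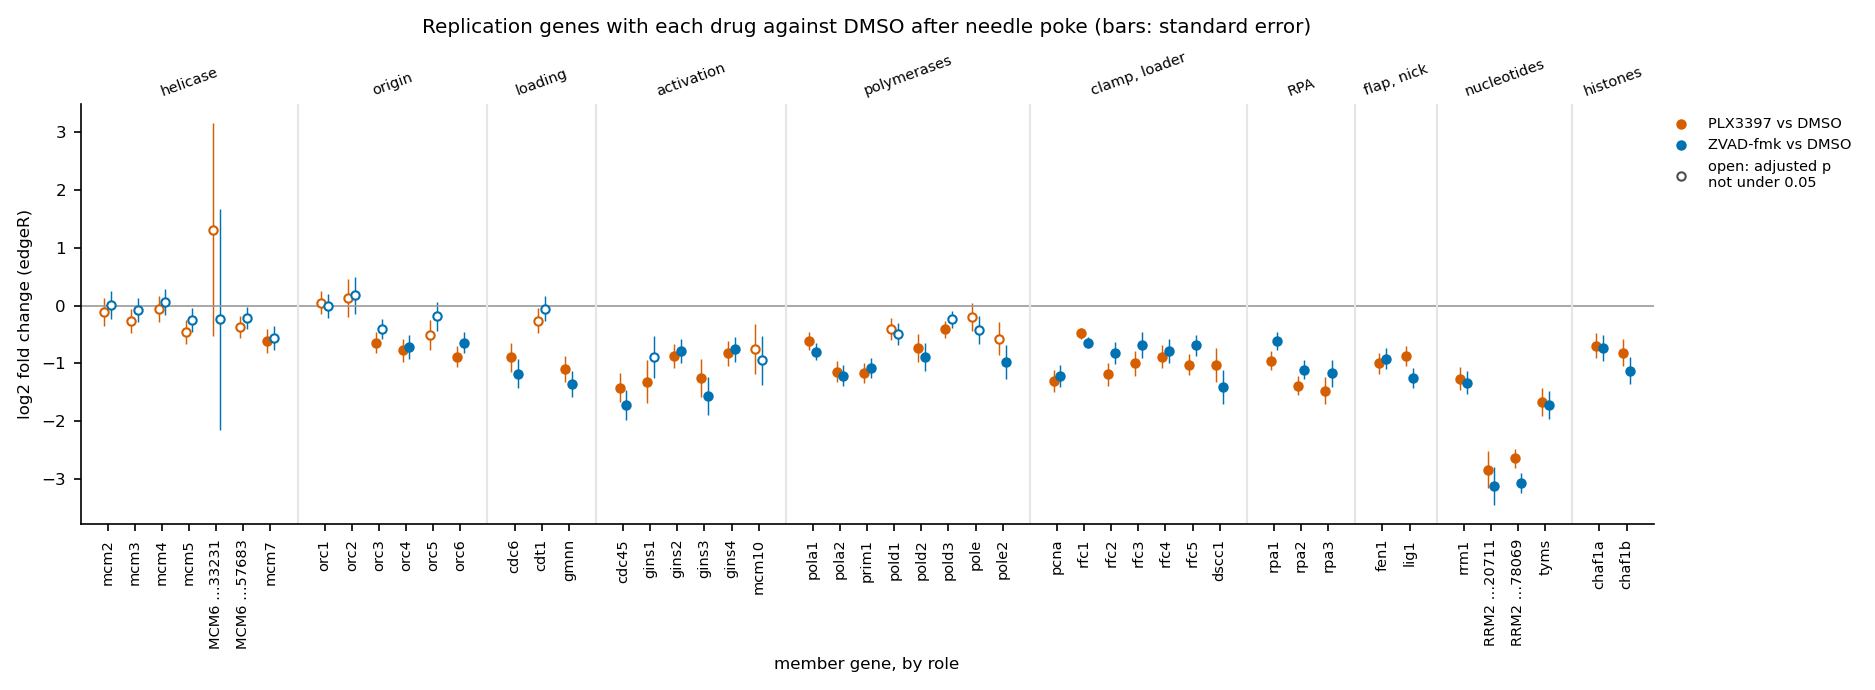
Change of each replication gene with PLX3397 and with ZVAD-fmk against DMSO after needle poke, as log2 fold change with bars of 1 SE, grouped by role. The 4 nucleotide supply genes lie between -3.13 and -1.27, and mcm2, mcm4 and orc1 lie near 0 with both drugs.

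The helicase genes encode the 6 subunits of the ring that unwinds DNA. For mcm2 the uninjured libraries held 1.71, 2.52 and 0.9499 CPM and the DMSO libraries 104, 102 and 130.4 CPM, a 63.6-fold rise (log2 fold change 5.99 ± 0.31, adjusted p = 2.78e-08). With PLX3397 mcm2 stood at 73.8, 133 and 105 CPM and with ZVAD-fmk at 113, 115 and 112 CPM. Both drug groups overlapped the DMSO libraries, and the changes of -0.11 ± 0.24 (adjusted p = 0.757) and 0.011 ± 0.24 (adjusted p = 0.984) were not called. For mcm4 the levels were 1.95, 3.03 and 2.23 CPM uninjured, 125, 132 and 167 CPM with DMSO, 96.8, 193 and 116 CPM with PLX3397 and 158, 144 and 139 CPM with ZVAD-fmk. It too overlapped DMSO with both drugs, at -0.064 ± 0.22 (adjusted p = 0.856) and 0.059 ± 0.22 (adjusted p = 0.891).

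Of the helicase genes, 1 of 7 was lower with PLX3397 and none with ZVAD-fmk, with medians of -0.28 and -0.21. The call was mcm7, at 72.7, 70.4 and 92.5 CPM with DMSO, 36.4, 68.2 and 49.1 CPM with PLX3397 and 51.6, 58.2 and 49.2 CPM with ZVAD-fmk. All its drug libraries lay below the DMSO ones, with changes of -0.62 ± 0.21 (adjusted p = 0.0382) and -0.57 ± 0.21 (adjusted p = 0.0803). The helicase count with PLX3397 turned on single libraries. Without PLX3397 replicate 2, mcm3, mcm5, MCM6 ENSDARG00000057683 and mcm7 were lower, at -0.54, -0.72, -0.67 and -0.87 with adjusted p of 0.0383, 0.00911, 0.00332 and 0.00412. Without the 4 libraries that stand apart, 5 were lower, mcm4 being added at -0.26 (adjusted p = 0.0452). Of the 7, none was lower without DMSO replicate 1 or 3, or without PLX3397 replicate 1 or 3. The second MCM6 gene, ENSDARG00000033231, was barely counted, at 0, 0 and 0.217 CPM uninjured, 0, 0.205 and 0 CPM with DMSO, 0.0982, 0.142 and 0.258 CPM with PLX3397 and 0, 0.0504 and 0.114 CPM with ZVAD-fmk, and no change was called.

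The origin recognition complex marks where helicases are loaded. Its 6 genes all rose, with the largest change in orc6, from 0.380, 0.454 and 0.380 CPM uninjured to 28.2, 30.3 and 36.98 CPM with DMSO (log2 fold change 6.28 ± 0.25, adjusted p = 3.55e-09). With PLX3397 orc6 stood at 13.4, 22.8 and 15.4 CPM and with ZVAD-fmk at 21.6, 20.1 and 19.2 CPM, all below DMSO, and fell by 0.89 ± 0.18 (adjusted p = 0.00239) and 0.65 ± 0.18 (adjusted p = 0.026). The gene of the largest subunit, orc1, rose from 0.841, 0.563 and 0.407 CPM to 20.6, 16.6 and 18.1 CPM (log2 fold change 4.93 ± 0.26, adjusted p = 2.7e-08). It overlapped DMSO at 15.8, 23.9 and 17.6 CPM with PLX3397 and 19.8, 15.8 and 19.3 CPM with ZVAD-fmk, with changes of 0.051 ± 0.20 (adjusted p = 0.874) and -0.009 ± 0.20 (adjusted p = 0.983). The smallest rise was that of orc3, from 4.58, 5.54 and 6.03 to 24.8, 27.1 and 33.3 CPM (log2 fold change 2.40 ± 0.19, adjusted p = 9.25e-07). In all, 3 of the 6 were lower with PLX3397 (orc3, orc4 and orc6) and 2 with ZVAD-fmk (orc4 and orc6).

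The 3 loading factors all rose, and 2 of them were lower with each drug. The loader cdc6 went from 1.41, 0.871 and 1.47 CPM uninjured to 26.1, 30.5 and 37.4 CPM with DMSO (log2 fold change 4.67 ± 0.30, adjusted p = 1.44e-07), and fell to 12.46, 24.2 and 13.6 CPM with PLX3397 (log2 fold change -0.90 ± 0.25, adjusted p = 0.0133) and 15.3, 12.52 and 13.5 CPM with ZVAD-fmk (log2 fold change -1.18 ± 0.25, adjusted p = 0.00571). Geminin (gmnn), which inhibits CDT1, went from 2.42, 3.19 and 1.66 to 12.9, 11.1 and 11.1 CPM (log2 fold change 2.27 ± 0.24, adjusted p = 1.21e-05) and back to 5.06, 6.02 and 5.29 CPM with PLX3397 (log2 fold change -1.10 ± 0.23, adjusted p = 0.00248) and 5.34, 4.37 and 3.94 CPM with ZVAD-fmk (log2 fold change -1.36 ± 0.23, adjusted p = 0.00146). For both genes no drug library reached a DMSO library. Its target cdt1 rose from 1.93, 1.98 and 1.52 to 14.3, 14.5 and 16.2 CPM (log2 fold change 3.05 ± 0.24, adjusted p = 9.28e-07), and the drug libraries, at 8.01, 16.6 and 12.8 CPM with PLX3397 and 15.3, 14.3 and 13.6 CPM with ZVAD-fmk, overlapped DMSO (-0.27 ± 0.22, adjusted p = 0.372, and -0.058 ± 0.22, adjusted p = 0.888).

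Helicase activation genes were below 2 CPM before injury and rose by 2.98 to 6.89. CDC45, the subunit that joins the MCM ring and GINS at the fork, had its gene at 0.271, 0.290 and 0.217 CPM uninjured and 17.98, 19.2 and 26.7 CPM with DMSO (log2 fold change 6.33 ± 0.35, adjusted p = 3.77e-08). It stood at 5.66, 11.7 and 6.46 CPM with PLX3397 and 7.17, 5.92 and 6.16 CPM with ZVAD-fmk, all below DMSO (-1.42 ± 0.26, adjusted p = 0.000939, and -1.73 ± 0.26, adjusted p = 0.000651). The activation factor mcm10, at 0.434, 0 and 0.0543 CPM uninjured and 18.3, 16.98 and 17.4 CPM with DMSO (log2 fold change 6.89 ± 0.63, adjusted p = 3.53e-06), also lay below DMSO in every library, at 7.04, 14.6 and 9.48 CPM with PLX3397 and 9.92, 9.36 and 7.96 CPM with ZVAD-fmk. Its changes were not called (-0.76 ± 0.43, adjusted p = 0.196, and -0.95 ± 0.43, adjusted p = 0.146). The GINS gene gins3 rose from 0.787, 0.780 and 1.74 to 8.84, 7.42 and 9.68 CPM (log2 fold change 2.98 ± 0.36, adjusted p = 3.36e-05) and stood at 3.27, 4.70 and 2.88 CPM with PLX3397 and 3.32, 3.41 and 2.00 CPM with ZVAD-fmk (-1.26 ± 0.33, adjusted p = 0.0102, and -1.57 ± 0.33, adjusted p = 0.00588). With PLX3397 5 of the 6 activation genes were lower, and with ZVAD-fmk 4.

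All 8 polymerase genes rose, from 2.21 for pold3, an accessory subunit of polymerase delta, to 5.16 for pole, the catalytic subunit of polymerase epsilon. The levels of pole were 1.87, 1.56 and 0.733 CPM uninjured, 48.6, 51.5 and 50.05 CPM with DMSO, 32.8, 61.01 and 36.8 CPM with PLX3397 and 40.7, 37.1 and 34.4 CPM with ZVAD-fmk. Its PLX3397 libraries overlapped DMSO and its ZVAD-fmk libraries lay below, and neither change was called (-0.20 ± 0.24, adjusted p = 0.567, and -0.42 ± 0.25, adjusted p = 0.265). Without the 4 libraries that stand apart, pole was lower with both drugs, at -0.51 (adjusted p = 0.0313) and -0.49 (adjusted p = 0.0485). In that fit pold1 was lower too, at -0.56 (adjusted p = 0.00228) and -0.40 (adjusted p = 0.0238). Without PLX3397 replicate 2 alone, pold1 was lower with PLX3397 (adjusted p = 0.0036) and pole was not called (adjusted p = 0.0777). The primase gene prim1, whose product makes the RNA primers, held 5.16, 5.72 and 5.56 CPM uninjured and 47.8, 43.1 and 55 CPM with DMSO (log2 fold change 3.15 ± 0.19, adjusted p = 7.22e-08). It fell to 17.1, 28.5 and 18.9 CPM with PLX3397 (log2 fold change -1.18 ± 0.17, adjusted p = 0.000229) and 23.4, 23.4 and 22.1 CPM with ZVAD-fmk (log2 fold change -1.08 ± 0.17, adjusted p = 0.000959), with no overlap. With each drug 5 of the 8 were lower (medians -0.60 and -0.84). With PLX3397 pold3 sat at the threshold, with an adjusted p that rounds to 0.05 at -0.41: its levels were 18.8, 20.6 and 17.6 CPM uninjured, 81.7, 82.03 and 100.3 CPM with DMSO and 51.8, 79.1 and 67.5 CPM with PLX3397, all of these below DMSO.

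The 7 clamp and clamp loader genes rose and were all lower with each drug (medians -1.03 and -0.79). PCNA is the ring that holds polymerases on DNA, and pcna went from 35.02, 37.4 and 31.2 CPM uninjured to 399, 379 and 524 CPM with DMSO (log2 fold change 3.65 ± 0.21, adjusted p = 5.21e-08). With PLX3397 it stood at 137, 233 and 154 CPM (log2 fold change -1.31 ± 0.19, adjusted p = 0.000216) and with ZVAD-fmk at 199, 182 and 177 CPM (log2 fold change -1.22 ± 0.19, adjusted p = 0.000847), between the DMSO and the uninjured libraries in every case. The large loader subunit rfc1 moved least, from 32.1, 31.98 and 37.1 to 72.4, 72.97 and 68.02 CPM (log2 fold change 1.08 ± 0.10, adjusted p = 4.32e-06), then 49.5, 53.5 and 49.6 CPM with PLX3397 (log2 fold change -0.48 ± 0.10, adjusted p = 0.00238) and 48.1, 44.5 and 43.99 CPM with ZVAD-fmk (log2 fold change -0.64 ± 0.10, adjusted p = 0.000855). The alternative loader subunit dscc1, part of a loader that serves sister chromatid cohesion, rose from 0.0814, 0.363 and 0.163 to 15.4, 13.8 and 21.4 CPM (log2 fold change 6.26 ± 0.40, adjusted p = 1.37e-07). It fell to 6.91, 10.9 and 6.93 CPM with PLX3397 and 6.58, 5.35 and 7.02 CPM with ZVAD-fmk (-1.03 ± 0.29, adjusted p = 0.0153, and -1.42 ± 0.29, adjusted p = 0.0053).

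RPA coats single-stranded DNA, and its 3 genes rose and were lower with both drugs. The small subunit rpa3 went from 1.60, 1.38 and 1.74 CPM uninjured to 17.3, 13.01 and 22.04 CPM with DMSO (log2 fold change 3.48 ± 0.26, adjusted p = 5.03e-07), and to 4.91, 8.19 and 5.68 CPM with PLX3397 (log2 fold change -1.48 ± 0.23, adjusted p = 0.000377) and 8.08, 8.36 and 6.76 CPM with ZVAD-fmk (log2 fold change -1.18 ± 0.23, adjusted p = 0.00372). The large subunit rpa1 went from 56.2, 76.9 and 62.2 to 165, 163 and 199 CPM (log2 fold change 1.43 ± 0.16, adjusted p = 2.08e-05), and to 74.9, 112 and 84.98 CPM with PLX3397 and 120.5, 114 and 109 CPM with ZVAD-fmk (-0.95 ± 0.16, adjusted p = 0.000611, and -0.61 ± 0.16, adjusted p = 0.0176). For both, the drug libraries lay below every DMSO library. The lagging strand genes followed: lig1, for the ligase that seals nicks, held 23.8, 25.7 and 25.8 CPM uninjured, 128, 128 and 170.2 CPM with DMSO, 59.6, 100.5 and 71.3 CPM with PLX3397 and 60.2, 58.1 and 59.05 CPM with ZVAD-fmk, and the drug changes were -0.88 ± 0.17 (adjusted p = 0.00163) and -1.26 ± 0.17 (adjusted p = 0.000351). The flap nuclease gene fen1 held 12.4, 10.1 and 16.2 CPM uninjured, 61.1, 58.02 and 81.6 CPM with DMSO, 28.4, 40.2 and 31.8 CPM with PLX3397 and 35.5, 35.9 and 34.5 CPM with ZVAD-fmk (-0.999 ± 0.18, adjusted p = 0.00112 with PLX3397 and -0.92 ± 0.18, adjusted p = 0.00409 with ZVAD-fmk).

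The 4 nucleotide supply genes had the lowest role medians under both drugs, -2.16 with PLX3397 and -2.40 with ZVAD-fmk, and all 4 were called lower with each. RRM2 is the small subunit of ribonucleotide reductase, which makes the DNA building blocks. RRM2 ENSDARG00000078069 rose from 9.09, 11.1 and 8.82 CPM uninjured to 249.6, 240.5 and 288 CPM with DMSO (log2 fold change 4.74 ± 0.18, adjusted p = 3.23e-09), and stood at 38.01, 52.02 and 34.2 CPM with PLX3397 (log2 fold change -2.65 ± 0.17, adjusted p = 4.97e-07) and 33.3, 31 and 27.9 CPM with ZVAD-fmk (log2 fold change -3.08 ± 0.17, adjusted p = 1.69e-07). RRM2 ENSDARG00000020711 went from 2.52, 4.99 and 2.93 to 84.7, 88.1 and 142 CPM, then to 13.4, 20.6 and 9.82 CPM with PLX3397 (log2 fold change -2.85 ± 0.32, adjusted p = 4.3e-05) and 15.4, 10.1 and 10.3 CPM with ZVAD-fmk (log2 fold change -3.13 ± 0.33, adjusted p = 4.02e-05). How reads divide between such copies is uncertain, so both were also summed. Summed, the changes were 4.79 from uninjured to DMSO, -2.70 with PLX3397 and -3.09 with ZVAD-fmk. The large reductase subunit rrm1 held 15.03, 21.5 and 17.6 CPM uninjured, 203, 190 and 248 CPM with DMSO, 68.1, 119 and 80.1 CPM with PLX3397 and 91.2, 82.2 and 81.04 CPM with ZVAD-fmk (-1.27 ± 0.20, adjusted p = 0.000331, and -1.33 ± 0.20, adjusted p = 0.000583 with the drugs). Thymidylate synthase (tyms), which makes the thymidine precursor, held 0.651, 1.11 and 0.706 CPM uninjured, 64.6, 62.8 and 75.8 CPM with DMSO, 15.6, 31.5 and 16.6 CPM with PLX3397 and 19.7, 20.6 and 21.1 CPM with ZVAD-fmk, with a rise of 6.33 ± 0.31 (adjusted p = 1.57e-08) and drug changes of -1.68 ± 0.24 (adjusted p = 0.000196) and -1.73 ± 0.24 (adjusted p = 0.000388). The differences in median between roles were not tested. In all 4 genes the drug libraries lay between the uninjured and the DMSO libraries.

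CAF-1 places histones on new DNA. Its subunit chaf1b rose from 0.326, 0.290 and 0.543 to 37.2, 37.3 and 47.7 CPM (log2 fold change 6.74 ± 0.32, adjusted p = 1.19e-08), and fell to 16.3, 32.8 and 20.3 CPM with PLX3397 (log2 fold change -0.82 ± 0.23, adjusted p = 0.0137) and 19.4, 18.6 and 17.8 CPM with ZVAD-fmk (log2 fold change -1.13 ± 0.23, adjusted p = 0.00445). The larger subunit chaf1a went from 5.10, 6.75 and 4.18 to 100.2, 106 and 116 CPM (log2 fold change 4.32 ± 0.26, adjusted p = 7.22e-08), then 45.7, 93.7 and 59.2 CPM with PLX3397 (log2 fold change -0.70 ± 0.22, adjusted p = 0.0272) and 69.8, 60.3 and 63.7 CPM with ZVAD-fmk (log2 fold change -0.73 ± 0.22, adjusted p = 0.0357). All drug libraries lay below DMSO, PLX3397 replicate 2 closest to it.

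**Figure D3:**
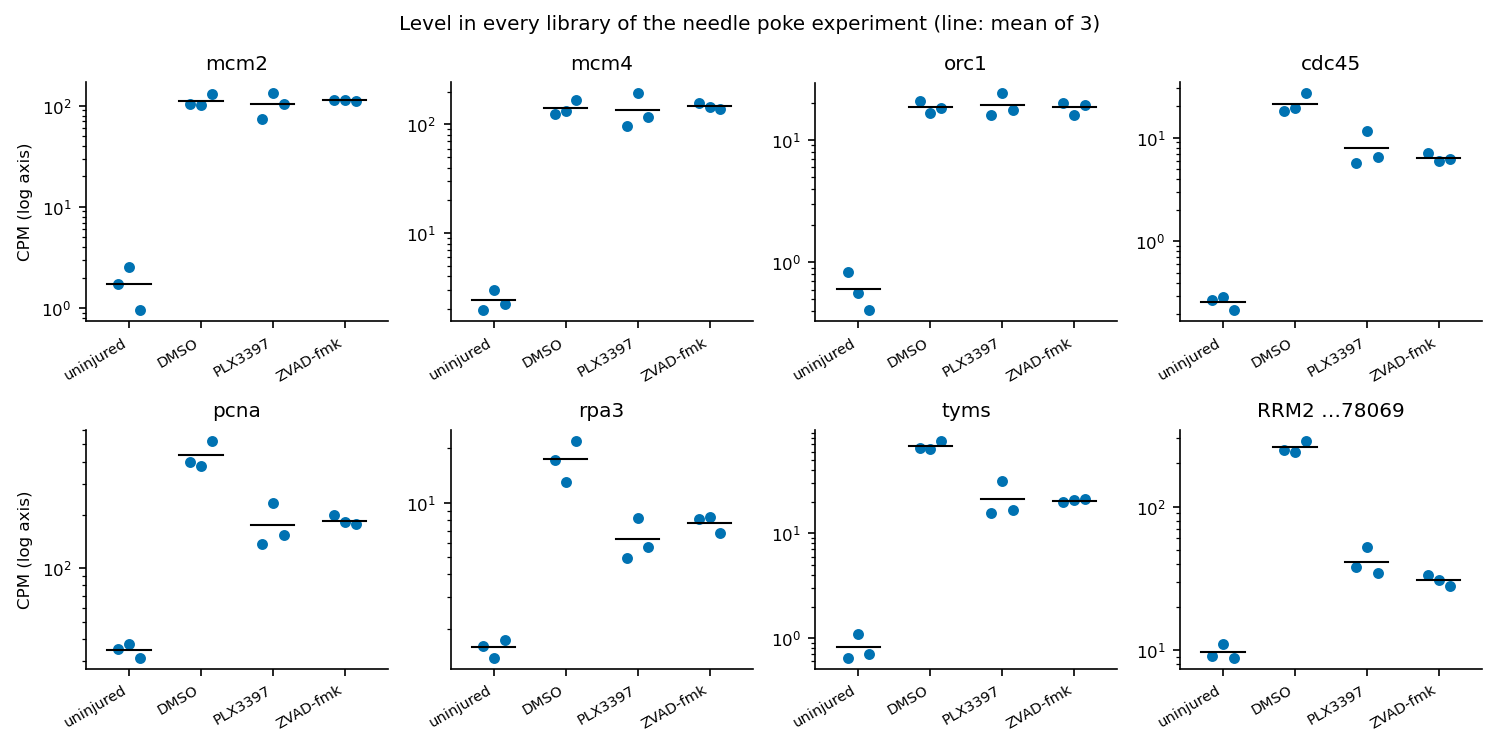
Level of 8 replication genes in each needle poke library, in CPM on a log axis, for the uninjured, DMSO, PLX3397 and ZVAD-fmk groups. Points are libraries and lines are means of 3. The drug libraries of mcm2, mcm4 and orc1 overlap DMSO, and those of cdc45, pcna, rpa3, tyms and RRM2 ENSDARG00000078069 lie below it.

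Replication genes stayed above the uninjured level under both drugs. With PLX3397 46 of 48 were higher than in uninjured retina (23% of all genes) and with ZVAD-fmk 47 (21.9% of all genes), with medians of 2.41 and 2.52. The gene that missed with PLX3397, beside MCM6 ENSDARG00000033231, was the loader subunit rfc5, at 11.2, 11.5 and 10.4 CPM uninjured and 10.5, 17.8 and 11.1 CPM with PLX3397 (log2 fold change 0.25 ± 0.18, adjusted p = 0.288). Between the drugs no replication gene was called, against 8.24% of all genes called either way (3.43% higher and 4.81% lower with PLX3397). By edgeR's unadjusted p under 0.05, 2 were higher and none lower with PLX3397, and DESeq2 called none. The shares of all genes by these 2 rules were not computed. The differences ranged from -0.43 to 1.56 with a median SE of 0.209, which does not show that the drugs act alike. The value of 1.56 belonged to the barely counted MCM6 ENSDARG00000033231, and no role other than the helicase went above 0.43. Without the 4 libraries that stand apart, 1 gene was higher and 13 were lower with PLX3397 than with ZVAD-fmk, and without PLX3397 replicate 2 alone 2 were lower. The shares of all genes called in these 2 fits were not computed, so the counts do not show a difference particular to replication genes.

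Other proliferation genes, from lists chosen with results of these data known, gave a frame for these counts. All 43 mitosis genes tested rose after needle poke (median 4.75) and all 43 were lower with each drug (medians -3.01 and -3.18). The largest drug change among them was in CDC20, an activator of the anaphase-promoting complex, at -5.47 ± 0.24 (adjusted p = 4.22e-08) with PLX3397 and -4.67 ± 0.23 (adjusted p = 9.61e-08) with ZVAD-fmk. The proliferation marker mki67 stood at 7.08, 6.61 and 7.41 CPM uninjured, 206, 210.2 and 239 CPM with DMSO, 26.2, 30.1 and 22.3 CPM with PLX3397 and 24.7, 19.7 and 22 CPM with ZVAD-fmk. Of 44 further replication genes, 38 rose and 3 fell after needle poke. With PLX3397 26 of them were lower and 1 higher, and with ZVAD-fmk 22 and 1. TK1, thymidine kinase, was the lowest of these with both drugs, at -2.23 ± 0.23 (adjusted p = 2.42e-05) and -2.92 ± 0.24 (adjusted p = 6.21e-06), and TOP1 ENSDARG00000086775, a topoisomerase I gene, was the 1 that was higher, at 1.32 ± 0.12 (adjusted p = 1.08e-05) and 0.53 ± 0.12 (adjusted p = 0.00926). Of 31 G1/S regulators tested, 18 rose and 5 fell after needle poke, 10 were lower and 2 higher with PLX3397, and 7 were lower with ZVAD-fmk. Of all genes, 18.2% were called higher and 13.4% lower after needle poke, 17.7% lower and 16.5% higher with PLX3397, and 8.96% lower and 9.7% higher with ZVAD-fmk. The G1/S regulators that fell after needle poke were thus close to the share of all genes, and those higher with PLX3397 below it.

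Marker lists of other cells moved with some of these groups. A list of 19 microglia and macrophage genes, with apoeb left out since it outweighs the sum of the rest, summed to 20.3, 36.7 and 18.6 CPM uninjured, 60.4, 55.5 and 315 CPM with DMSO, 19.1, 28.7 and 35.8 CPM with PLX3397 and 67.1, 63.6 and 63.1 CPM with ZVAD-fmk. Of its genes 1 to 8 were at 0 in a library, and c1qa was at 0 in every uninjured library. The high DMSO value was replicate 3. Without that library 26 replication genes were lower with PLX3397 and 21 with ZVAD-fmk. The shares of all genes called lower then were not computed, and whether microglia bear on these counts was not tested. The 8 rod genes summed to 4491, 3435 and 4395 CPM uninjured, 4000, 3876 and 4923 CPM with DMSO, 811, 740.4 and 1593 CPM with PLX3397 and 1117, 1473 and 1337 CPM with ZVAD-fmk. The 6 Müller glia genes summed to 19010, 30810 and 20980 CPM uninjured, 9248, 8952 and 8730 CPM with DMSO, 6780, 7170 and 7705 CPM with PLX3397 and 8132, 7604 and 7375 CPM with ZVAD-fmk. Their part in the replication results was not tested.

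After NMDA injury every replication gene tested was higher in all 3 genotypes. The 48 genes summed to 268, 289 and 269 CPM in uninjured and 6437, 6489 and 6491 CPM in injured wild-type retina. All 47 genes tested were called higher in wild type (35.6% of all 20254 genes tested), in csf1ra mutants (36.4%) and in csf1rb mutants (37%), with medians of 4.79, 4.43 and 4.05. The injured libraries lay above the uninjured ones of their genotype for all 47, a pattern held by 39.5%, 36.2% and 39.8% of all genes in wild type, csf1ra and csf1rb mutants, and MCM6 ENSDARG00000033231 had too few counts to be tested. The rise was larger after NMDA than after needle poke in 44 of 47 genes. Over the 47 genes the sizes of the rises ranked alike (Spearman rho 0.88, a description over genes that share libraries, from experiments that were fitted apart). Neither the share of all genes with a larger rise nor the rho over all genes was computed. Of all genes tested, 35.6% were called higher after NMDA in wild type and 18.2% after needle poke. The experiments also differ in batch and spread, and the poked fish of this comparison had DMSO.

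**Figure D4:**
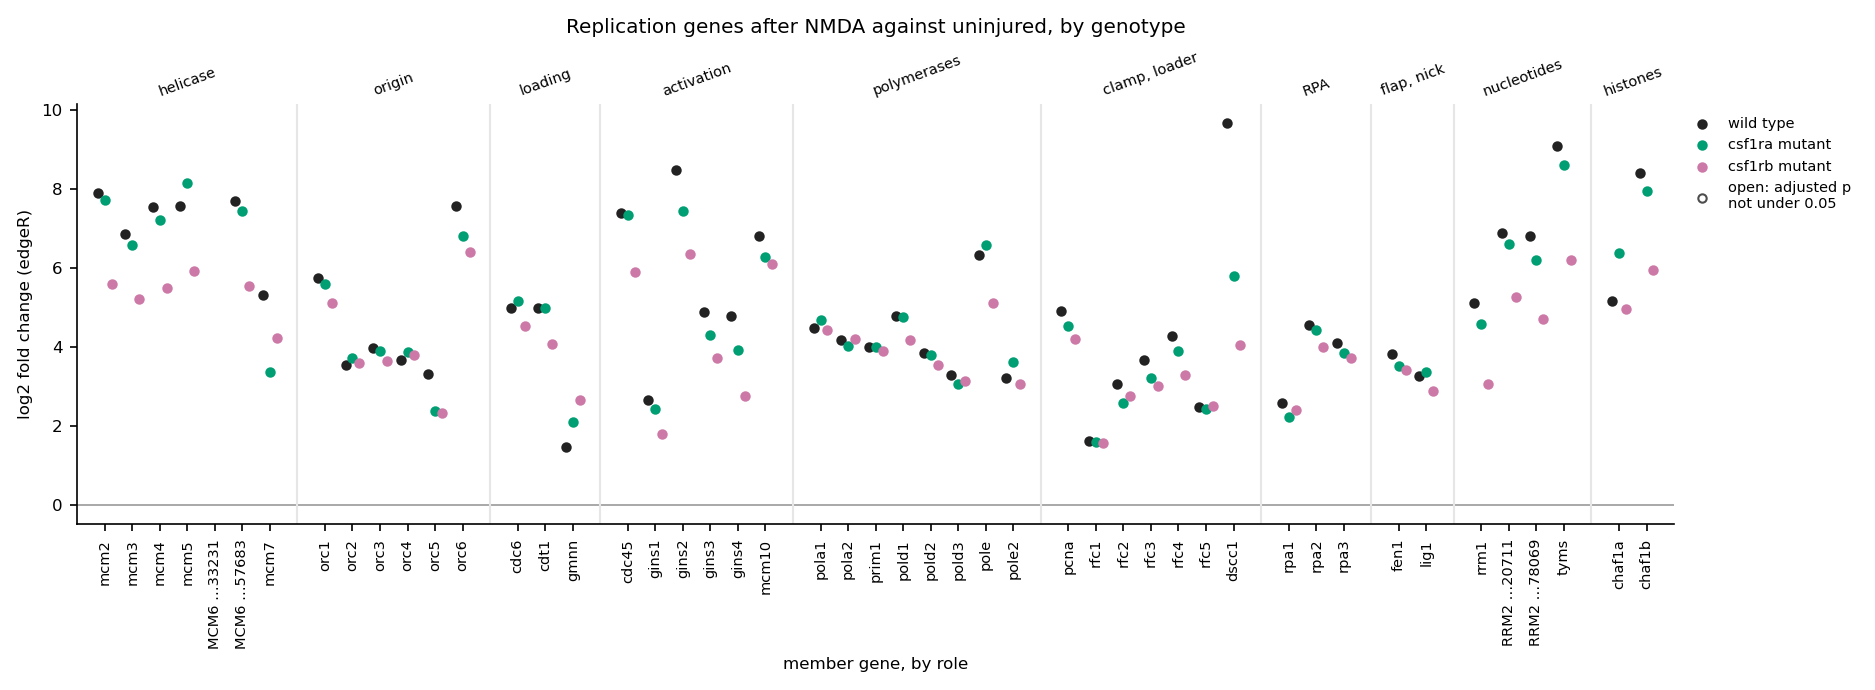
Change of each replication gene from uninjured to NMDA-injured retina within wild type, csf1ra mutants and csf1rb mutants, as log2 fold change, grouped by role. All 47 genes tested lie above 0 in each genotype, from 1.48 for gmnn in wild type to 9.09 for tyms and 9.68 for dscc1, whose wild-type value rests on 3 uninjured counts.

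In wild type the role medians after NMDA were 7.55 for the helicase, 6.85 for nucleotide supply, 6.78 for the histone chaperone, 5.85 for helicase activation and 4.99 for loading factors. They were 4.10 for RPA, 4.09 for polymerases, 3.83 for origin recognition, 3.68 for the clamp and its loaders and 3.54 for flap and nick processing. Geminin had the smallest rise of the 47, from 6.28, 6.53 and 6.83 CPM uninjured to 18.4, 17.3 and 19.1 CPM (log2 fold change 1.48 ± 0.21, adjusted p = 6.16e-06), and rfc1 the next, from 30.4, 30.1 and 29.4 to 89.1, 96.7 and 90.7 CPM (log2 fold change 1.62 ± 0.086, adjusted p = 4.34e-11). The clamp gene pcna went from 25.4, 27.1 and 28.2 to 782, 843 and 823 CPM (log2 fold change 4.92 ± 0.26, adjusted p = 4.34e-11) and tyms from 0.248, 0.293 and 0.227 to 139, 140.3 and 147 CPM (log2 fold change 9.09 ± 0.42, adjusted p = 8.6e-12). For dscc1 the 3 uninjured wild-type libraries held 3 counts together, 0.0413, 0.0367 and 0.0377 CPM, and the injured ones 35.9, 34.6 and 34.7 CPM. That ratio was 912 with a 95% counting interval of 312 to 4426, which covers counting error only.

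Among injured retinas the question was whether loss of either CSF1 receptor gene altered the response. The targeted genes were read first. Transcripts of csf1ra stood at 7.47, 6.78 and 6.68 CPM in injured wild types and 1.27, 1.45 and 1.45 CPM in injured csf1ra mutants, and those of csf1rb at 0.268, 0.343 and 0.373 CPM and, in injured csf1rb mutants, 0, 0.0239 and 0.0353 CPM. In uninjured retina csf1ra stood at 4.34, 3.92 and 4.19 CPM in wild types and 0.162, 0.316 and 0.258 CPM in csf1ra mutants, and csf1rb at 0.661, 0.330 and 0.793 CPM in wild types and 0.0814, 0.370 and 0.0573 CPM in csf1rb mutants. Only uninjured csf1rb mutant replicate 2 reached the wild-type range. Replication genes summed to 6192, 7162 and 5919.9 CPM in csf1ra and 5408, 5219 and 5860.3 CPM in csf1rb mutants after NMDA. In csf1ra mutants 3 of 47 were called higher than in wild type (9.24% of all genes) and none lower (13.2%), with a median of -0.031. By unadjusted p under 0.05, 4 were higher and none lower, and DESeq2 gave the same counts. In csf1rb mutants none was higher (11.9% of all genes) and 2 were lower (11.4%), with a median of -0.20 against 0.0019 over all genes. By unadjusted p 9 were lower and none higher, and DESeq2 called 6 lower and none higher. For neither mutant was the share of all genes by unadjusted p or by DESeq2 computed, so these counts stand without it. Both mutants were set against the same wild-type libraries. The called genes of edgeR's test over all groups were a smaller share of the 47 than of all genes in both mutants. The fit of wild type and csf1rb mutants alone called 17 lower, and the share of all genes it called lower was not computed.

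The 3 genes higher in csf1ra mutants were 2 origin recognition subunits and a GINS subunit. After NMDA orc6 held 56.2, 54.6 and 53.1 CPM in wild type, 71.96, 85.8 and 64.8 CPM in csf1ra and 56.99, 57.2 and 61.2 CPM in csf1rb mutants (log2 fold change 0.44 ± 0.15, adjusted p = 0.044 for csf1ra). For gins3 the levels were 13.3, 14.7 and 14.4 CPM in wild type, 18.8, 25.9 and 17.8 CPM in csf1ra and 14.5, 14.1 and 15.8 CPM in csf1rb mutants (log2 fold change 0.56 ± 0.18, adjusted p = 0.0311), and for orc3 66.2, 55.1 and 62.7 CPM in wild type, 78.7, 90.5 and 75.9 CPM in csf1ra and 56.3, 51.7 and 66.1 CPM in csf1rb mutants (log2 fold change 0.41 ± 0.14, adjusted p = 0.0368). Every csf1ra mutant library lay above the wild types in these 3 genes, and also in lig1 and chaf1a, which were not called, a pattern held by 21.1% of all genes. In 5 other genes every csf1ra mutant library lay below the wild types, and the share of all genes with that pattern is not given here. None of the 3 calls held without csf1ra mutant replicate 2, without wild-type replicate 2 or without wild-type replicate 3, and 1 held without wild-type replicate 1.

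The 2 genes lower in csf1rb mutants were the loader cdc6 and dscc1. For cdc6 injured wild types held 84.95, 90.9 and 91.5 CPM, csf1ra mutants 78.01, 77.5 and 74.5 CPM and csf1rb mutants 65.3, 61 and 66.8 CPM, with changes of -0.22 ± 0.13 (adjusted p = 0.247) and -0.47 ± 0.13 (adjusted p = 0.0138). Both mutants lay below every wild-type library. For dscc1 the values were 35.9, 34.6 and 34.7 CPM in wild type, 24.5, 36.5 and 30.02 CPM in csf1ra and 22.4, 22.1 and 25.3 CPM in csf1rb mutants (-0.21 ± 0.14, adjusted p = 0.32, and -0.59 ± 0.14, adjusted p = 0.00632), and the csf1rb mutants lay below wild type while the csf1ra mutants overlapped it. Every csf1rb mutant library lay below every wild-type library in 28 of 47 genes, a pattern held by 21.8% of all genes, and above in 1 (22.3% of all genes). A fit of those 2 groups alone called 17 lower, and without csf1rb mutant replicate 2 1 was. For neither fit was the share of all genes called lower computed.

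The other genes were not called between injured genotypes. Of the helicase, mcm5 had the lowest csf1ra value, 342, 304 and 289 CPM in wild type, 256, 259 and 212 CPM in csf1ra and 209, 214 and 204 CPM in csf1rb mutants (-0.36 ± 0.31, adjusted p = 0.437, and -0.58 ± 0.31, adjusted p = 0.208), below wild type in every mutant library but not called. The levels of mcm2 were 297, 294 and 271 CPM in wild type, 293, 276 and 244 CPM in csf1ra and 221, 215 and 228 CPM in csf1rb mutants (-0.084 ± 0.30, adjusted p = 0.868, and -0.38 ± 0.30, adjusted p = 0.413). The clamp gene pcna stood at 782, 843 and 823 CPM in wild type, 769, 912 and 744 CPM in csf1ra and 688, 675 and 767 CPM in csf1rb mutants (-0.013 ± 0.22, adjusted p = 0.975, and -0.20 ± 0.22, adjusted p = 0.574). The ligase gene lig1 stood at 222, 211 and 218 CPM in wild type, 249, 286 and 245 CPM in csf1ra and 224, 195 and 249 CPM in csf1rb mutants (0.26 ± 0.11, adjusted p = 0.104, and 0.037 ± 0.11, adjusted p = 0.86), and rpa3 at 43.6, 42.04 and 47.7 CPM in wild type, 47.8, 60.8 and 44.8 CPM in csf1ra and 40.3, 38.9 and 40.7 CPM in csf1rb mutants (0.20 ± 0.22, adjusted p = 0.545, and -0.15 ± 0.22, adjusted p = 0.678). For mcm2, pcna and rpa3 the csf1ra mutants overlapped wild type and every csf1rb mutant library lay below it.

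RRM2 ENSDARG00000020711 was spread widely within groups, at 249.7, 306 and 211 CPM in wild type, 211, 513 and 275 CPM in csf1ra and 278, 263 and 427 CPM in csf1rb mutants. Its copy ENSDARG00000078069 stood at 372, 364 and 503 CPM in wild type, 344, 284 and 351 CPM in csf1ra and 271, 229 and 183 CPM in csf1rb mutants, and neither was called in either mutant. The share of RRM2 reads given to the first gene ran from 29.6% to 70.1% over the NMDA libraries. The polymerase alpha subunit pola2 stood at 68.7, 65.7 and 72.4 CPM in wild type, 70.7, 87.01 and 70.3 CPM in csf1ra and 64.2, 64.8 and 70.97 CPM in csf1rb mutants and chaf1a at 255, 254 and 251 CPM in wild type, 306, 332 and 272 CPM in csf1ra and 238, 227 and 280.5 CPM in csf1rb mutants, with csf1ra changes of 0.14 ± 0.14 (adjusted p = 0.511) and 0.26 ± 0.15 (adjusted p = 0.249). Over the 47 genes the csf1ra changes lay between -0.36 and 0.56 and the csf1rb changes between -0.86 and 0.34, with a median SE of 0.155 each. For mitosis genes the counts were 0 of 43 called in csf1ra mutants and 7 lower in csf1rb mutants. For csf1rb mutants this stands beside the 11.4% of all genes called lower.

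Uninjured csf1rb mutants held more RNA of part of the machinery than uninjured wild types. There 22 of 47 genes were higher and 1 lower, against 14.5% and 12.4% of all genes, with a median of 0.47 against 0.05. Every mutant library lay above every wild-type one in 24 genes, a pattern held by 28.2% of all genes. By role, 5 of 6 helicase genes tested, 4 of 6 activation genes and 4 of 4 nucleotide supply genes were higher. For mcm2 uninjured wild types held 0.992, 1.503 and 1.06 CPM and csf1rb mutants 6.14, 6.00 and 1.80 CPM (log2 fold change 1.94 ± 0.40, adjusted p = 0.00168). For gins4 the levels were 0.661, 1.17 and 0.830 CPM in wild type and 4.31, 4.33 and 3.12 CPM in csf1rb mutants (log2 fold change 2.12 ± 0.23, adjusted p = 6.84e-06), for tyms 0.248, 0.293 and 0.227 CPM in wild type and 1.83, 2.40 and 0.573 CPM in csf1rb mutants (log2 fold change 2.58 ± 0.50, adjusted p = 0.0011) and for rrm1 11.5, 13.1 and 9.89 CPM in wild type and 36.2, 37.8 and 37.05 CPM in csf1rb mutants (log2 fold change 1.69 ± 0.27, adjusted p = 0.00019). These 4 genes did not overlap between genotypes, but replicate 3 was the lowest csf1rb mutant library in all but rrm1, and over all genes it was lowest in 31 of 47. Without it 23 genes were higher, and the share of all genes called higher in that fit was not computed. Lost calls of replication genes were also counted over all comparisons that hold the library left out. Those comparisons differ between groups, so the counts do not show how much each library matters to this result. In that count 9 calls were lost without csf1rb uninjured replicate 1, 7 without replicate 2 and 1 without replicate 3. Without wild-type uninjured replicates 1, 2 and 3, the calls lost were 14, 7 and 13.

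Geminin was the 1 gene called lower, at 6.28, 6.53 and 6.83 CPM in wild type and 2.93, 1.96 and 2.35 CPM in csf1rb mutants (log2 fold change -1.44 ± 0.23, adjusted p = 0.000181). The sliding clamp pcna, at 25.4, 27.1 and 28.2 CPM in wild type and 43.97, 37.9 and 34.6 CPM in csf1rb mutants, lay above wild type in every mutant library and was not called (log2 fold change 0.53 ± 0.23, adjusted p = 0.0937), and none of the 3 RPA genes was. Of 43 mitosis genes 34 were higher, against 14.5% of all genes (median 1.97), and mki67 stood at 24.4, 17.1 and 4.21 CPM against 1.78, 2.68 and 2.00 CPM in wild type. Rod genes summed to 12970, 14290 and 14520 CPM in wild type, 8042, 5176 and 5105 CPM in csf1ra and 2450, 1365 and 2865 CPM in csf1rb mutants, all uninjured. Müller glia genes summed to 11170, 12860 and 11280 CPM in wild type, 17350, 17100 and 23160 CPM in csf1ra and 20060, 21810 and 19280 CPM in csf1rb mutants. The 19 microglia and macrophage genes summed to 11.7, 14.2 and 13.7 CPM in wild type, 1.53, 1.79 and 2.47 CPM in csf1ra and 3.54, 5.40 and 5.99 CPM in csf1rb mutants. The list includes csf1ra, so part of the lower sums of csf1ra mutants, here and after NMDA, is the targeted transcript itself. Of those 19, 3 to 9 were at 0 in a library, and c1qb was at 0 in every uninjured csf1ra mutant library. After NMDA the list summed to 42.5, 44.9 and 38.7 CPM in wild type, 11.2, 10.9 and 14.2 CPM in csf1ra and 10.3, 11.2 and 10.6 CPM in csf1rb mutants. The part of these cells in the replication results was not tested.

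In uninjured csf1ra mutants 8 of 47 genes were higher than in wild type and 1 lower, against 7.94% and 6.74% of all genes (median 0.26). Beside dscc1, the largest change was in mcm7, at 5.66, 4.803 and 5.06 CPM in wild type and 18.2, 18.6 and 13.2 CPM in mutants (log2 fold change 1.69 ± 0.22, adjusted p = 7.57e-05), with no overlap. The others higher were gins3, gins4, orc3, orc6, rfc2, rfc3 and dscc1, and the lower one was chaf1a, at 6.65, 7.52 and 7.10 CPM in wild type and 3.96, 3.96 and 2.99 CPM in csf1ra mutants (log2 fold change -0.96 ± 0.18, adjusted p = 0.00161). Replicate 5 was the highest mutant library in 35 of 47 genes. Without it 5 were higher and 3 lower and the median turned to -0.034, and without replicate 4 14 were higher and 2 lower. Without wild-type replicate 1 or 3, 3 were higher, and the fit of these 2 groups alone called 1 higher. The shares of all genes called in these fits were not computed, so these counts stand without them. For dscc1 the mutants held 0.606, 0.351 and 0.664 CPM in csf1ra and 1.22, 1.59 and 1.38 CPM in csf1rb, ratios to wild type of 13.9 (95% counting interval 4.45 to 70.05) and 36.4 (12.2 to 179), which rest on the 3 wild-type counts.

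**Figure D5:**
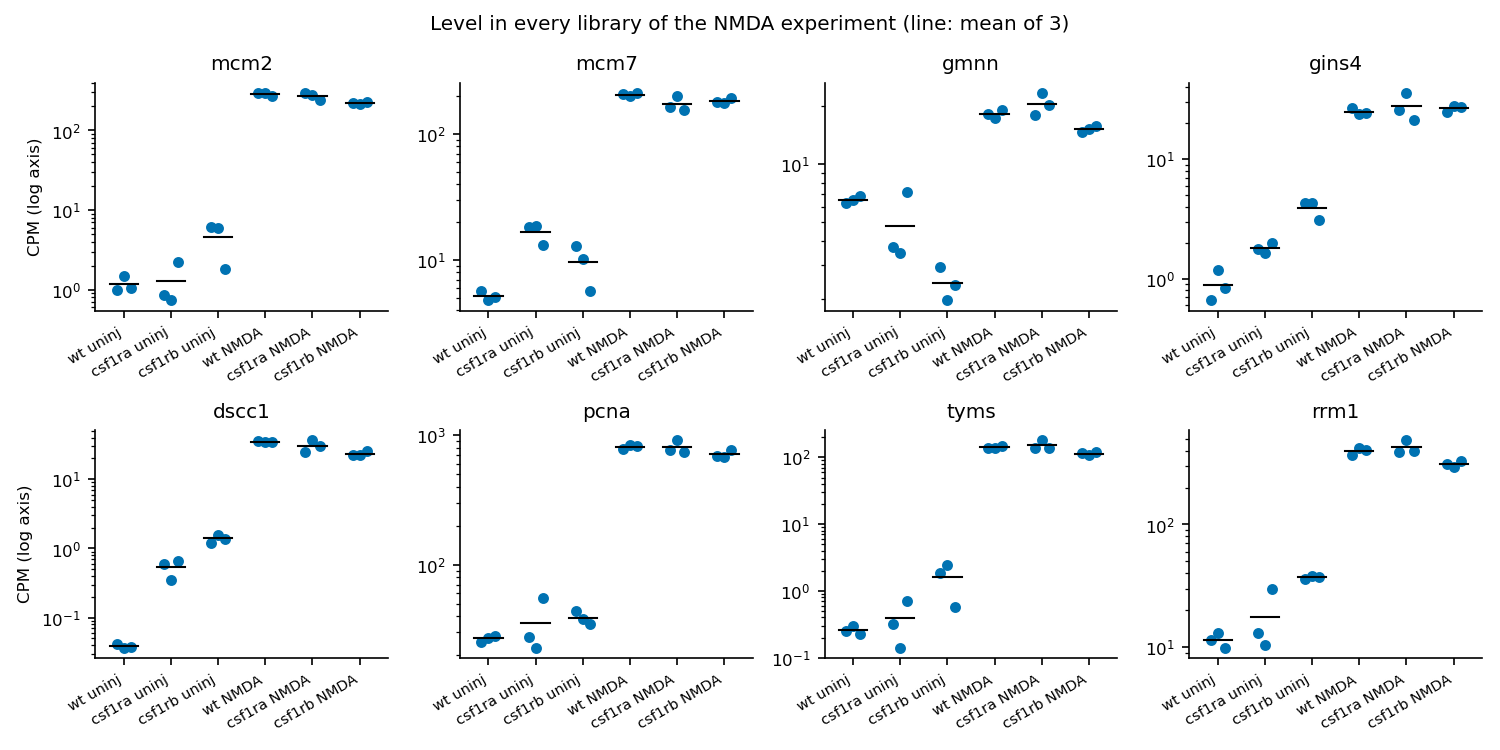
Level of 8 replication genes in each library of the NMDA experiment, in CPM on a log axis, for uninjured and NMDA-injured wild type, csf1ra mutants and csf1rb mutants. Points are libraries and lines are means of 3. Uninjured csf1rb mutants lie above uninjured wild types for mcm2, gins4, dscc1, pcna, tyms and rrm1 and below for gmnn. Of these, pcna was not called. After NMDA every csf1rb mutant library lies below every wild-type library for mcm2, dscc1 and pcna, of which dscc1 was called.

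The change on injury itself differed from wild type in 20 genes of the csf1rb mutants and 3 of the csf1ra mutants, by the interaction of genotype and NMDA. In csf1rb mutants the rise was smaller in 19 genes and larger in 1, against 4.07% and 4.1% of all genes. The 1 that was larger, geminin, was not called without csf1rb uninjured replicate 2, wild-type NMDA replicate 2 or wild-type uninjured replicate 3. The interaction holds the same uninjured libraries as the comparison of uninjured genotypes, with the sign turned, so calls shared by them are not separate results. The interaction for mcm2 was -2.32 ± 0.50 (adjusted p = 0.00934): its uninjured levels did not overlap between these genotypes, and its injured levels were not called different. In csf1ra mutants the rise was smaller for mcm7 (-1.94 ± 0.29, adjusted p = 0.00144) and dscc1 and larger for chaf1a (1.22 ± 0.24, adjusted p = 0.00675), against 3.27% and 2.56% of all genes. These calls, 2 and 1 of 47, were near those shares.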

How the data were processed

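Polyadenylated RNA of zebrafish retinas was measured in 30 libraries. Per the submitters' processing notes, the build was GRCz11 and the tools RSEM 1.3.3, STAR 2.7.8a, cutadapt 4.8 and FastQC 0.11.8, and the annotation release, strand setting and parameters are not given in the sources used here. The authors deposited 1 table of expected counts per gene for each experiment, not scaled between libraries, as whole numbers. Of the 21 columns of the needle poke file, 9 matched no sample and were not used. The tables have 32524 entries, of which 4 are transgenes, with 0.0518% and 0.0464% of the counts, and these were left out. Of the transgenes, egfp had 17542 to 63330 counts per library after needle poke and 6121 to 29965 in the NMDA experiment.

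Each experiment was fitted on its own, with all its libraries and 1 mean per group, by edgeR 4.0.16 in R 4.3.3 with limma 3.58.1 (quasi-likelihood F test, robust, two-sided, TMM scaling). Genes with low counts were removed by filterByExpr, which left 21334 of 25975 genes and 20254 of 26728. Within each of 15 comparisons the p-values of all genes tested were adjusted by the Benjamini-Hochberg method. The biological coefficient of variation common to all genes came to 0.292 after needle poke and 0.171 in the NMDA experiment. The SE is the log2 fold change divided by the root of F. Alternatives were DESeq2 1.42.0, other scalings, no filter, a replicate block, fits of 2 groups alone, and leaving out libraries. Replicate numbers did not pair the samples, and no 2 libraries of a group were copies (lowest chi-square per degree of freedom 7.73). On simulated counts for PLX3397 against DMSO, 21334 genes, the test recovered 4.35% of 69 changes of 1.5-fold, 30.2% of 63 of 2-fold and 64.7% of 68 of 4-fold. For csf1ra mutants against wild type after NMDA, 20254 genes, it recovered 21.6% of 74, 68.8% of 64 and 79.0% of 62. The changed genes were drawn at random from all levels and were far fewer than the genes called in the data. These rates therefore do not give the share of replication gene changes that could be called.

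The members and the companion and marker lists were chosen with earlier results of these data known. Values per library are printed for the members with the largest and smallest absolute change of each role in needle poke with DMSO against uninjured, PLX3397 against DMSO, and csf1ra mutant against wild type after NMDA, and for members whose calls are discussed, which were chosen after their values were seen. Of the companion lists, the genes named are among the 3 largest called rises or falls, beside mki67, which was chosen by name.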

Additional observations from a re-analysis of the deposited data

Results flagged for a closer look

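The change on NMDA injury differed between csf1rb mutants and wild type in 20 replication genes and between csf1ra mutants and wild type in 3, by edgeR's test of the interaction itself. Of all genes tested, 4.07% were called lower and 4.1% higher by the csf1rb interaction, and 3.27% and 2.56% by the csf1ra interaction. The csf1ra calls, 2 lower and 1 higher of 47, were near these shares. Values are the injury change in the mutant minus that in the wild type, on the log2 scale. In csf1rb mutants 19 rises were smaller, and all 19 of these genes were also called higher in uninjured csf1rb mutants than in uninjured wild types. Both comparisons hold the same uninjured libraries, so these calls are not separate results. Of the 19 genes, 1 was called between csf1rb mutants and wild types after NMDA. In csf1rb mutants the helicase genes differed by -2.32 (mcm2), -1.66 (mcm3), -2.05 (mcm4), -2.15 (MCM6 ENSDARG00000057683) and -1.07 (mcm7). The loading factors cdt1 and gmnn differed by -0.90 and 1.19, and the activation genes gins1, gins2, gins3 and gins4 by -0.87, -2.11, -1.17 and -2.01. The polymerase genes pold1 and pole differed by -0.61 and -1.22, and rfc4 by -0.98. The nucleotide supply genes rrm1, RRM2 ENSDARG00000020711, RRM2 ENSDARG00000078069 and tyms differed by -2.03, -1.61, -2.11 and -2.90, and chaf1b by -2.46. For dscc1 the value was -5.62 in csf1rb and -3.86 in csf1ra mutants, both resting on the 3 uninjured wild-type counts. In csf1ra mutants mcm7 differed by -1.94 and chaf1a by 1.22.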

How the results depend on the processing

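The 47 rises after needle poke with DMSO were called under every alternative run. For the alternatives the shares of all genes called were not computed, so their counts of members stand without them. Over 405 calls of single members, 5197 alternative values were computed: 4990 kept the call, 207 lost it and 0 turned, and 45 calls were lost in at least 1 setting. Replicate numbers did not pair samples: libraries with the same number deviated together with correlations of -0.132 to 0.162 after needle poke and -0.15 to 0.142 in the NMDA experiment. With a replicate block, 6 members were lower in csf1rb mutants after NMDA, 3 higher and 3 lower in uninjured csf1ra mutants, and 2 higher in the csf1ra interaction, and the member medians turned to -0.098 in uninjured csf1ra mutants and 0.13 in the csf1ra interaction. Total count scaling, which moved the median of all genes by up to 0.28, gave 1 member higher with PLX3397 than ZVAD-fmk, 0 higher in csf1ra and 7 lower in csf1rb mutants after NMDA, and 4 lower in the csf1ra interaction. It turned uncalled changes to 0.025 (mcm2) and 0.069 (mcm4) with PLX3397 and to 0.024 (mcm3), 0.085 (orc1) and 0.041 (cdt1) with ZVAD-fmk. In csf1rb mutants after NMDA, DESeq2-type size factors gave 4 lower, DESeq2 6 and the fit of 2 groups 17. That fit gave 1 lower in csf1ra mutants after NMDA and 1 higher in uninjured ones. For mcm2 with ZVAD-fmk the size factors, DESeq2 and the fit of 2 groups gave -0.0016, -0.0015 and -0.00012. Without the 4 libraries that stand apart, 1 member was higher and 13 lower with PLX3397 than ZVAD-fmk, orc1 and orc2 with PLX3397 stood at -0.14 and -0.019, and mcm3 with ZVAD-fmk at 0.064.

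Leaving out 1 library at a time gave 20 to 29 members lower with ZVAD-fmk, and, for PLX3397 against ZVAD-fmk, 0 to 2 lower. It gave 0 to 3 higher in csf1ra and 1 to 2 lower in csf1rb mutants after NMDA, and 3 to 14 higher and 1 to 3 lower in uninjured csf1ra mutants. The csf1ra interaction held 1 to 2 higher and the csf1rb interaction 0 to 1 higher and 13 to 23 lower. Member medians ran from -0.034 to 0.42 in uninjured csf1ra mutants and from -0.36 to 0.042 in the csf1ra interaction. With PLX3397 the changes ran from -0.33 to 0.081 for mcm2, -0.41 to 0.13 for mcm4, -0.14 to 0.17 for orc1 and -0.15 to 0.37 for orc2. With ZVAD-fmk they ran from -0.050 to 0.13 for mcm2, -0.16 to 0.062 for mcm3, -0.019 to 0.20 for mcm4, -0.078 to 0.088 for orc1 and -0.11 to 0.0037 for cdt1. The cause of these shifts was not tested. Groups of 3 libraries limit how small a change can be called.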
